A study of Homo sapiens with 6 samples.

Results

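The molecular chaperones described here are the heat shock protein, DNAJ, BAG, PDIA, HSF and chaperonin genes. They were picked by a rule on gene symbols that uses no measured value, although earlier results of these data were known. Of the 53826 entries in the deposited tables, 92 matched. The set holds 15 HSPA, 3 HSP90, 8 HSPB, 43 DNAJ, 6 BAG, 4 PDIA, 8 TRiC and 2 HSF genes, together with HSPD1, HSPE1 and HSPH1. RNA-seq compared A549-TIPARP cells with A549-GFP cells, each with 3 libraries. Both are derived from A549, an established line of human lung adenocarcinoma. They had been transduced with a pMXs retroviral vector, which carried the coding region of TIPARP in one line and GFP in the other, so the A549-GFP cells share the transduction and differ in the inserted gene. TIPARP is a mono-ADP-ribosyltransferase, and the sources used here do not say whether a line is 1 clone or a pool of cells.

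Chaperones bind unfolded protein and help it to reach or keep its folded shape. HSP70 proteins (HSPA) work with J-domain partners (DNAJ), which hand them their clients, and with BAG proteins, which release the nucleotide. HSP90 completes the folding of kinases and receptors, small heat shock proteins (HSPB) hold unfolded protein in solution without ATP, and the TRiC ring (TCP1 and the CCT genes) folds actin and tubulin. HSF1 switches on the cytosolic genes when proteins unfold by binding heat shock elements, and the unfolded protein response switches on the ER (endoplasmic reticulum) genes through the ER stress element. Cancer cell lines often carry high levels of many of these chaperones.

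Each table gave the level of a gene as log2 TPM, and the values below were turned back to TPM, which is scaled to the length of the transcript and lets genes be compared. The 3 values of a line are given in the order of its replicate numbers. Values below 1 TPM had been set to 1, the floor of the tables. A gene was analysed if 1 or more of the 6 libraries exceeded 2 TPM, which 79 of the 92 members did. These were all 18 members of the ER, 41 of the 53 of the cytosol and nucleus, 9 of the 10 of the mitochondrion, all 8 of TRiC, both HSF genes and HSPB11, which is kept apart because it is a part of the intraflagellar transport machinery and no small heat shock protein by function. Of the other 13 members, 8 were listed at the floor in all 6 libraries (DNAJA4, DNAJB3, DNAJB8, HSPA7, HSPB2, HSPB3, HSPB7 and HSPB9). The remaining 5 (DNAJB7, DNAJB13, DNAJC28, HSPA6 and HSPB6) reached at most 1.69 TPM. HSPA6, a strictly stress-inducible HSP70, was above the floor in 1 library, A549-GFP replicate 2, with 1.14 TPM. The filter looked at the highest library, so a count over the 79 does not describe all 92.

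The promoters of the members were searched for the elements named above. In the RefSeq promoter table (GRCh38.p14), 80 members had an entry and 70 of them were analysed. The 250 bases before the start were searched on both strands for a heat shock element of 2 units, GAANNTTC or TTCNNGAA, for the form of 3 units, in which GAA and TTC alternate at 2-base gaps and which contains the shorter form, and for the ER stress element, which is CCAAT followed after 9 bases by CCACG. The following stretches were taken from HSPB8 and HSPB1, the members with the smallest p-values, from HSPA1A, HSPA8 and HSP90AA1 as typical genes of the heat shock response, and from HSPA5 and HSP90B1 as typical genes of the ER. Capitals mark the 2-unit element in HSPB1, HSPB8 and HSPA1A, the 3-unit form in HSPA8 and HSP90AA1 and the ER stress element in HSPA5 and HSP90B1, and each stretch reads 5′ to 3′ on the strand of its gene. Where GENCODE 44 places untranslated exon sequence of a transcript next to a match, the stretch was cut short.
HSPB1, chr7:76302451-76302538, plus strand: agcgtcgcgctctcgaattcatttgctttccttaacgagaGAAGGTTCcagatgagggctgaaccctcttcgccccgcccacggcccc
HSPB8, chr12:119178803-119178890, plus strand: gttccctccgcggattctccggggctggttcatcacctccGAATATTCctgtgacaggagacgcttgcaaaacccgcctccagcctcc
HSPA1A, chr6:31815397-31815484, plus strand: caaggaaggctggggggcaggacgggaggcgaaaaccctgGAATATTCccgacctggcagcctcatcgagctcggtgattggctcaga
HSPA8, chr11:123062353-123062386, minus strand: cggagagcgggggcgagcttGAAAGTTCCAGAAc
HSP90AA1, chr14:102087080-102087172, minus strand: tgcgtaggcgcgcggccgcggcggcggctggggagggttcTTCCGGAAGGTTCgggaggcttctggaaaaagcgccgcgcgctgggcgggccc
HSPA5, chr9:125241383-125241449, minus strand: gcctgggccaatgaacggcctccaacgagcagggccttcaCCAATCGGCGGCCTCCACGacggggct
HSP90B1, chr12:103930211-103930240, plus strand: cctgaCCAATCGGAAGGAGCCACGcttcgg
A heat shock element of 2 units was found in 18 of the 70 analysed members (25.7%), against 14% of 27305 RefSeq genes. Of the cytosolic and nuclear members 14 of 36 (38.9%) held one, and of the ER members 0 of 16. The form of 3 units was found in 5 of the 70 (DNAJB6, HSP90AA1, HSP90AB1, HSPA8 and HSPD1, 7.14%) against 0.557% of all genes. The ER stress element was found in HSP90B1, HSPA5 and PDIA6 (18.8% of the 16 ER members) against 0.0916% of all genes. HSPA8 and HSP90B1 each held 2 matches, of which the first is printed, and the HSP90AA1 stretch holds a further 2-unit element in lower case. A match describes these letters and is neither a bound site nor a cause of any value below. The gene records of GENCODE 44 start upstream of the RefSeq start for some genes, and the stretches of HSPB8, HSPA8, HSP90AA1 and HSP90B1 lie inside them, that of HSP90B1 in an untranslated first exon of 1 transcript, while those of HSPB1, HSPA1A and HSPA5 lie outside.

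The check of the labels was TIPARP itself, with 6.79, 11.4 and 3.68 TPM in A549-GFP replicates 1 to 3 and 131, 90.5 and 123 TPM in A549-TIPARP replicates 1 to 3 (log2 difference 3.90 ± 0.34 SE, limma, adjusted p = 0.0125). A549-GFP replicate 2 stood apart from the other libraries. Of all 13181 analysed genes, 52.0% had their highest value there, and its median ratio to the mean library was 0.27 on the log2 scale, against -0.19 to 0.03 in the other 5. The epithelial markers KRT8, KRT18, KRT19, CDH1 and EPCAM were found in all 6 libraries, with a summed level of 8341 to 21244 TPM in A549-GFP and 16520 to 19963 TPM in A549-TIPARP. KRT8 and KRT18 carried most of that sum. KRT19 was at 4.57, 2.54 and 5.36 TPM in A549-GFP and at 19.2, 18.98 and 10.9 TPM in A549-TIPARP, without overlap (log2 difference 1.75 ± 0.31 SE, limma, adjusted p = 0.283), and its part in the chaperone values was not tested. The endothelial markers PECAM1, CDH5 and VWF, the leukocyte markers PTPRC and CD3E and the fibroblast markers COL3A1 and DCN were at the floor in every library. The summed fibroblast list was 1.09 to 1.44 TPM in A549-GFP and 1.64 to 2.56 TPM in A549-TIPARP, from COL1A1 and LUM, and the leukocyte marker CD14 was at most 4.98 and 5.63 TPM. The titles number the experiments but do not say that libraries came from separate cultures, so the p-values measure the spread between these libraries, which may be technical.

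No chaperone passed the test between the lines. In limma over all 13181 genes, 0 of the 79 analysed members had an adjusted p under 0.05, against 0.0152% of all genes, and the smallest adjusted p of a member was 0.856. At an unadjusted limma p under 0.05 there were 4 members with a higher mean in A549-TIPARP (HSPB8, HSPB1, HSPA12B and DNAJB5), against 2.97% of all genes, and 1 with a lower mean (DNAJA3), against 0.88%. All 3 A549-TIPARP libraries lay above all 3 A549-GFP libraries in 7 members (8.86%, against 5.36% of all genes) and below them in 1 (1.27%, against 3.54%). With the libraries rescaled by their median ratio these counts were 6 (7.59%, against 6.93% of all genes) and 3 (3.80%, against 5.10%). Past 1.5-fold on the log2(TPM + 1) scale, which understates the change of low genes, were 4 members in the higher direction, against 3.42% of all genes, and 0 in the lower direction, against 1.73%. DNAJB5 was in each of these higher counts, and DNAJC18 was among the 7 separated members. Both exceeded 2 TPM only in A549-TIPARP libraries. The filter thus let them in through the line in which they were higher, and they add no support to the counts. In bulk RNA, fewer cells with a transcript and less of it per cell cannot be told apart.

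Ordered by compartment, the median of the log2 difference was -0.10 over the 18 ER members, -0.11 over the 41 cytosolic and nuclear members, -0.15 over the 9 mitochondrial members, -0.08 over the 8 TRiC genes and -0.06 over all 13181 genes. With the libraries rescaled by their median ratio the medians were -0.040 for the ER, -0.051 for the cytosol, -0.082 for the mitochondrion and -0.015 for TRiC, against -0.0040 for all genes. Corrected for the GC content of the transcripts, a step added after the data were seen, the ER and TRiC medians turned to 0.011 and 0.014, while those of the cytosol (-0.055) and the mitochondrion (-0.019) stayed negative, against 0.00014 for all genes. Single libraries moved these medians apart. Without A549-GFP replicate 2 they were 0.088 for the ER, -0.055 for the cytosol, -0.21 for the mitochondrion and -0.26 for TRiC, against 0.042 for all genes. Without A549-GFP replicate 3 the ER median was -0.26, the cytosolic one -0.20, the mitochondrial one -0.19 and the TRiC one -0.0079, against -0.16 for all genes. Without A549-TIPARP replicate 2 the TRiC median was -0.23, the mitochondrial one -0.30 and the cytosolic one -0.20, against -0.085 for all genes. Without A549-TIPARP replicate 3 the TRiC median was 0.11, the mitochondrial one -0.058 and the cytosolic one -0.030, against -0.036 for all genes, and without A549-GFP replicate 1 the TRiC median was 0.043. The mean of A549-TIPARP was the lower one in 57 of the 79 members (72.2%) and in 60.4% of all genes. This count was 47 of 79 after rescaling, when it was 50.6% of all genes, 42 after the GC correction (49.96% of all genes) and 44 without A549-GFP replicate 2 (42.6% of all genes). It was 44 (55.7%, against 56.2% of all genes) without A549-TIPARP replicate 3 and 48 (60.8%, against 59.4%) without A549-GFP replicate 1. It was 56 (70.9%, against 68.3%) without A549-GFP replicate 3. Without A549-TIPARP replicate 1 it was 53 (67.1%, against 61.2%), and without replicate 2 of that line 59 (74.7%, against 62.1%). The ER and the cytosolic medians differed by less than the SD between libraries of a line, which was 0.23 for the ER and 0.14 for the cytosol. Both classes were read in the same libraries, so this SD does not measure the spread of their difference.

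**Figure D1:**
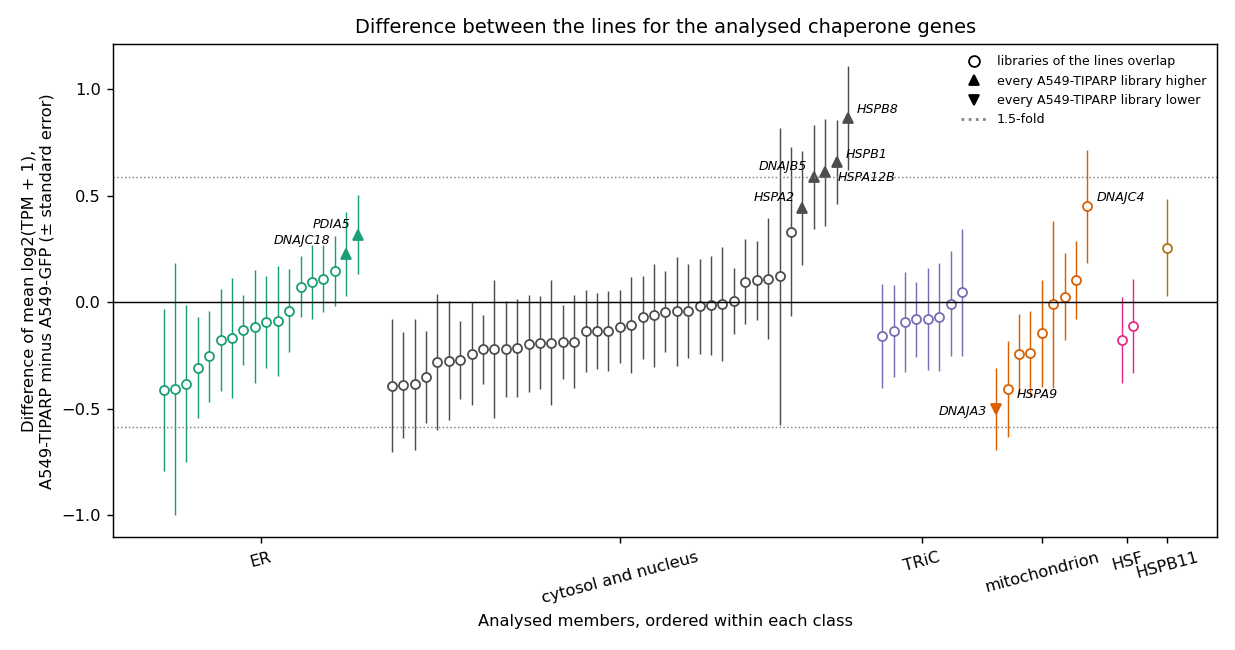
Difference of the mean log2(TPM + 1), A549-TIPARP minus A549-GFP, with its standard error (vertical axis), for the 79 analysed members ordered within each class (horizontal axis). Filled triangles mark the 7 members that were higher and the 1 that was lower in every A549-TIPARP library, and dotted lines mark 1.5-fold.

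The plot of the differences by class shows most points within 1.5-fold on either side of 0, with standard errors that cross 0. The points above the upper line were the small heat shock proteins HSPB8 and HSPB1 and the weakly expressed HSPA12B and DNAJB5. No point lay below the lower line, and the lowest was DNAJA3.

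Small heat shock proteins held the 2 smallest p-values among the members. HSPB8 (chr12:119171555-119224855, 3 exons), which pairs with BAG3 to send misfolded protein to autophagy, was at 5.56, 5.53 and 3.65 TPM in A549-GFP replicates 1 to 3 and at 8.51, 8.91 and 11.7 TPM in A549-TIPARP replicates 1 to 3. All A549-TIPARP libraries were higher, and the groups did not overlap. The log2 difference was 0.86 ± 0.24 (SE), a fold of 1.82, with a limma p of 0.00659 and an adjusted p of 0.856. It stayed between 0.70 and 0.95 when any 1 library was left out.

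HSPB1 (chr7:76302673-76304295, 3 exons), or HSP27, was far more abundant, with 453, 728 and 687 TPM in A549-GFP and 945, 953 and 988 TPM in A549-TIPARP. The A549-TIPARP libraries lay close together and above every A549-GFP library, of which replicate 1 was the lowest. The log2 difference was 0.66 ± 0.20 (SE), with a limma p of 0.00995 and an adjusted p of 0.892, and it was 0.44 without A549-GFP replicate 1. Of the transcript windows of 100 bases, 6.05% also occur in the pseudogene HSPB1P1. The other analysed member with an HSPB symbol was HSPB11, with 44.2, 29.4 and 43.3 TPM in A549-GFP and 45.3, 55.0 and 39.1 TPM in A549-TIPARP, and these libraries overlapped. CRYAB, a small heat shock protein outside the set, was picked after its values were seen. It was at 1.65, 6.33 and 1.07 TPM in A549-GFP and at 2.19, 1.08 and 4.59 TPM in A549-TIPARP, which overlapped (log2 difference -0.04 ± 0.51 SE).

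BAG3, the partner of HSPB8, did not show this pattern. It was at 77.1, 82.9 and 71.8 TPM in A549-GFP and at 69.0, 75.6 and 59.2 TPM in A549-TIPARP, with a log2 difference of -0.19 ± 0.17 (SE), -0.094 without A549-TIPARP replicate 3 and -0.12 under rescaling, and overlapping libraries. Within each library the ratio of HSPB8 to BAG3 was 0.0509 to 0.0721 in A549-GFP and 0.118 to 0.198 in A549-TIPARP, and that of HSPB1 to BAG3 was 5.87 to 9.57 and 12.6 to 16.7. These ratios were formed after the values were seen. Since HSPB8 and HSPB1 were already higher in every A549-TIPARP library and BAG3 had a lower mean, the ratios restate those values and are no further evidence.

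**Figure D2:**
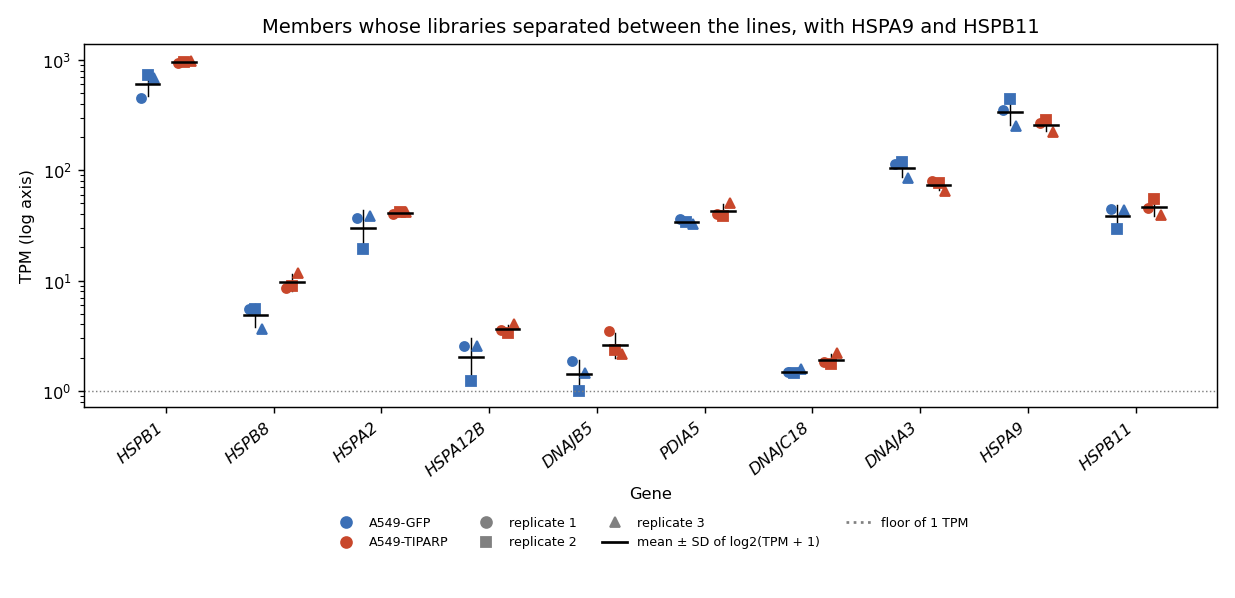
TPM on a log axis in each of the 6 libraries for the 8 members whose libraries did not overlap between the lines, with HSPA9 and HSPB11 for comparison. Points are libraries, black bars are the mean ± SD of log2(TPM + 1) over 3 libraries turned back to TPM, and the dotted line is the floor of 1 TPM.

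In the HSP70 family (HSPA), 13 of the 15 members were analysed, and before rescaling 2 of them (15.4%, against 5.36% of all genes) were higher in every A549-TIPARP library. HSPA12B, a distant relative of HSP70 known from endothelial cells, was at 2.57, 1.23 and 2.55 TPM in A549-GFP and at 3.60, 3.37 and 3.996 TPM in A549-TIPARP (log2 difference 0.61 ± 0.25 SE, limma, adjusted p = 0.994). The difference was 0.39 without A549-GFP replicate 2. The 3 endothelial markers were at the floor in every library. HSPA2, known as a testis HSP70 and singled out after its values were seen, was at 36.7, 19.2 and 38.2 TPM in A549-GFP and at 40.4, 41.4 and 41.5 TPM in A549-TIPARP. All A549-TIPARP libraries were higher, but the difference of 0.44 on the log2 scale rested largely on A549-GFP replicate 2, without which it was 0.13. Under median-ratio rescaling the HSPA2 libraries overlapped.

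The main cytosolic HSP70 genes overlapped between the lines. HSPA8, the constitutive HSP70 and the most abundant member in all 6 libraries, was at 1611, 1369 and 1334 TPM in A549-GFP and at 1171, 1422 and 1114 TPM in A549-TIPARP, a log2 difference of -0.22 ± 0.16 (SE) that was -0.14 without A549-GFP replicate 1 and also under the GC correction. HSPA1A, the stress-inducible HSP70, was at 190, 246 and 242 TPM in A549-GFP and at 175, 246 and 198 TPM in A549-TIPARP. Its copy HSPA1B had 55.9, 66.8 and 73.1 TPM in A549-GFP and 53.0, 73.1 and 60.6 TPM in A549-TIPARP. The HSPA1A and HSPA1B transcripts share 72.4% and 72.8% of their windows of 100 bases with other genes, mostly with each other, so the split between them is uncertain, and HSPA1A was 3.27 to 3.68 times HSPA1B in every library. HSPA4 and HSPH1, which act as nucleotide exchange factors for HSP70, had log2 differences of -0.04 ± 0.26 and -0.39 ± 0.25 (SE). HSPH1 was lowest in A549-TIPARP replicate 3 (32.5 TPM) and highest in A549-GFP replicate 2 (65.2 TPM), and its difference was -0.19 without A549-TIPARP replicate 3 and -0.63 without A549-TIPARP replicate 2.

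Of the J-domain partners, 37 of 43 were analysed. In the cytosol DNAJB1, the usual partner of the inducible HSP70, was at 99.7, 122 and 89.5 TPM in A549-GFP and at 113, 122 and 97.8 TPM in A549-TIPARP, which overlapped. DNAJA1 was at 302, 286 and 275 TPM in A549-GFP and at 236, 293 and 194 TPM in A549-TIPARP, with the highest and lowest library of the 6 in different lines and a log2 difference of -0.27 ± 0.18 (SE), which was -0.13 without A549-TIPARP replicate 3, -0.42 without A549-TIPARP replicate 2 and -0.16 under the GC correction. DNAJB5 was low, at the floor in A549-GFP replicate 2 and at 1.88 and 1.44 TPM in replicates 1 and 3, and at 3.49, 2.36 and 2.15 TPM in A549-TIPARP (log2 difference 0.59 ± 0.24 SE, limma, adjusted p = 0.994). Its libraries did not overlap, and its fold of 1.501 was barely past 1.5-fold. The DNAJB5 difference was 0.43 without A549-TIPARP replicate 1, 0.45 without A549-GFP replicate 2 and 0.90 with no added pseudocount. DNAJC12, singled out for its spread, ran from 3.82 to 34.3 TPM within A549-GFP alone, a range that held all 3 A549-TIPARP libraries (7.52, 7.56 and 15.5 TPM).

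The BAG genes were all analysed, and none of the 6 separated between the lines. The median of their log2 differences was -0.27, which kept its sign under rescaling (-0.20) and the GC correction (-0.20) and without any 1 library. It was -0.10 without A549-GFP replicate 2, where 4 of the 6 had their highest value, -0.17 without A549-TIPARP replicate 3 and -0.18 without A549-GFP replicate 1. The most negative was BAG5, with 19.5, 32.4 and 12.9 TPM in A549-GFP and 15.9, 16.3 and 13.5 TPM in A549-TIPARP, a difference of -0.39 ± 0.31 (SE) that was -0.07 without A549-GFP replicate 2. BAG2, which inhibits the ubiquitin ligase CHIP, was at 58.8, 39.8 and 41.2 TPM in A549-GFP and at 35.8, 41.1 and 31.1 TPM in A549-TIPARP, with overlap at 1 library. Its log2 difference of -0.35 was -0.17 without A549-GFP replicate 1 and -0.21 under the GC correction.

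HSP90 varied more between libraries of a line than between the lines. HSP90AB1 was at 1276, 710 and 1173 TPM in A549-GFP and at 991, 1327 and 796 TPM in A549-TIPARP. HSP90AA1 was at 896, 591 and 804 TPM in A549-GFP and at 611, 988 and 393 TPM in A549-TIPARP, with a log2 difference of -0.28 ± 0.32 (SE) that was -0.62 without A549-TIPARP replicate 2, -0.46 without A549-GFP replicate 2, -0.16 without A549-GFP replicate 1 and 0.046 without A549-TIPARP replicate 3. Both were low in A549-GFP replicate 2 and A549-TIPARP replicate 3 and high in A549-GFP replicate 1 and A549-TIPARP replicate 2. Their sum ran from 1301 to 2172 TPM in A549-GFP and from 1189 to 2314 TPM in A549-TIPARP.

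The TRiC genes showed the same order of libraries. Their sum was 3062, 2064 and 2836 TPM in A549-GFP and 2517, 3070 and 1944 TPM in A549-TIPARP. TCP1 was at 290, 193 and 269 TPM in A549-GFP and at 222, 292 and 167 TPM in A549-TIPARP, and CCT5 was at 242, 147 and 216 TPM in A549-GFP and at 195, 239 and 142 TPM in A549-TIPARP. Of the 8 genes, 6 had their lowest value in A549-TIPARP replicate 3 and the other 2 in A549-GFP replicate 2, in which 52.0% of all genes had their highest. The subunits, which form 1 complex, thus moved together by library, and the ratio of the highest to the lowest subunit stayed between 2.80 and 3.75. Their log2 differences between the lines were -0.16 to 0.05 and none separated.

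**Figure D3:**
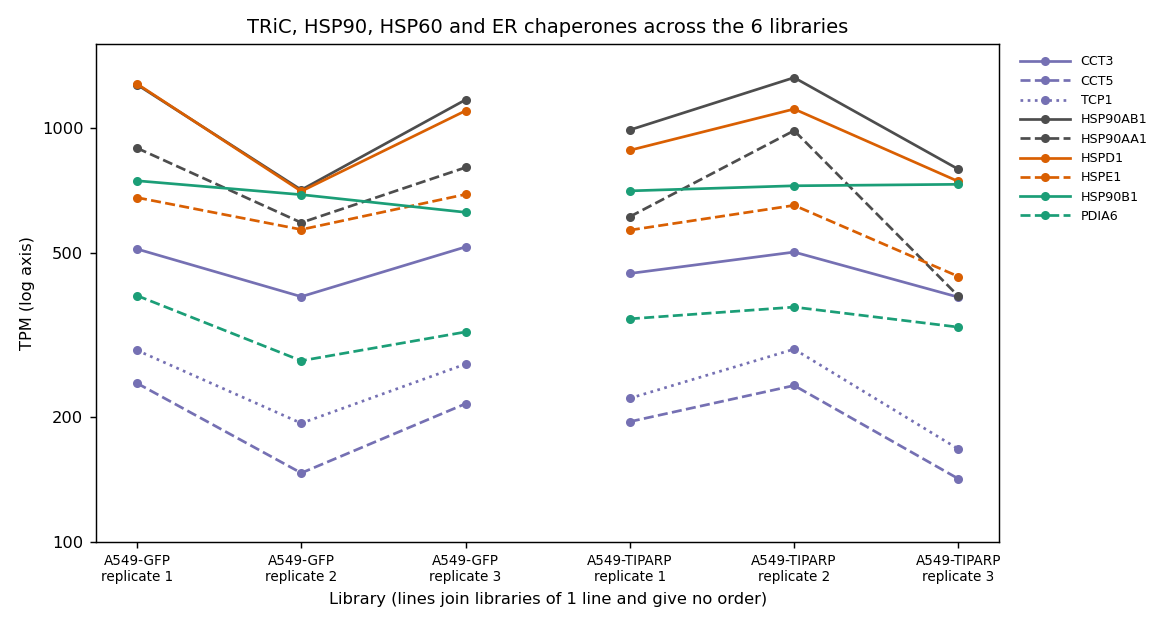
TPM on a log axis in the 6 libraries for 3 TRiC genes (purple), HSP90AB1 and HSP90AA1 (grey), HSPD1 and HSPE1 (orange) and the ER chaperones HSP90B1 and PDIA6 (green). The TRiC, HSP90 and HSPD1 lines dip in A549-GFP replicate 2 and A549-TIPARP replicate 3, and HSP90B1 stays between 626 and 747 TPM.

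In the mitochondrion, 6 of the 9 analysed members had a lower mean in A549-TIPARP and 3 (DNAJC4, DNAJC19 and DNAJC30) a higher one. DNAJA3 (chr16:4425805-4456775, 12 exons), a J-domain protein of the matrix, was at 113, 119 and 85.1 TPM in A549-GFP and at 80.2, 77.2 and 64.5 TPM in A549-TIPARP. Before rescaling it was the only member below every A549-GFP library, with a log2 difference of -0.50 ± 0.19 (SE), a limma p of 0.0294 and an adjusted p of 0.994. Without any 1 library the difference was -0.65 to -0.41. Under median-ratio rescaling HSPA9 and DNAJC25 also lay below every A549-GFP library. HSPA9 (mortalin), the HSP70 of the matrix, was at 353, 445 and 250.5 TPM in A549-GFP and at 267, 283 and 222 TPM in A549-TIPARP, so that before rescaling A549-GFP replicate 3 fell among the A549-TIPARP libraries (log2 difference -0.41 ± 0.23 SE, limma, adjusted p = 0.994). The ratio of HSPA9 to DNAJA3 was 2.94 to 3.72 in A549-GFP and 3.33 to 3.66 in A549-TIPARP, which overlapped.

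The matrix chaperonin HSPD1 (HSP60) was at 1281, 704 and 1103 TPM in A549-GFP and at 885, 1114 and 744 TPM in A549-TIPARP. Its lid HSPE1 (HSP10), of whose windows 31.7% are shared with other genes such as the readthrough gene HSPE1-MOB4, was at 680, 569 and 692 TPM in A549-GFP and at 567, 651 and 438 TPM in A549-TIPARP. Both overlapped between the lines. DNAJC4 had the highest positive difference of the mitochondrial members, 0.45 ± 0.27 (SE) on the log2 scale, with 27.8, 43.5 and 38.1 TPM in A549-GFP and 47.2, 37.3 and 68.2 TPM in A549-TIPARP, which overlapped. The difference was 0.22 without A549-TIPARP replicate 3 and 0.27 without A549-GFP replicate 1.

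Outside the set, 8 genes of mitochondrial protein quality control were looked at, and 0 of 8 passed the adjusted threshold. The libraries of 6 of the 8 overlapped, and 7 of the 8 had a lower mean in A549-TIPARP. The 2 below every A549-GFP library, as were 3.54% of all genes, were GRPEL1 and GRPEL2, the nucleotide exchange factors of HSPA9. GRPEL1 was at 40.3, 54.0 and 36.7 TPM in A549-GFP and at 31.2, 35.2 and 23.8 TPM in A549-TIPARP (log2 difference -0.52 ± 0.23 SE, limma, adjusted p = 0.994). GRPEL2 was at 9.27, 12.1 and 8.04 TPM in A549-GFP and at 7.17, 6.69 and 5.25 TPM in A549-TIPARP (log2 difference -0.54 ± 0.24 SE, limma, adjusted p = 0.994). The differences of HSPA9, DNAJA3, GRPEL1 and GRPEL2 kept their sign under rescaling and the GC correction and without any 1 library. The last was bound to hold for DNAJA3, GRPEL1 and GRPEL2, whose libraries did not overlap. All 4 genes had their highest value in A549-GFP replicate 2. Without that library the difference was -0.21 for HSPA9, -0.36 for GRPEL1 and -0.40 for GRPEL2, and for HSPA9 it was -0.63 without A549-GFP replicate 3.

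In the ER, the abundant chaperones overlapped between the lines. HSP90B1 (GRP94), the HSP90 of the ER, was at 747, 691 and 626 TPM in A549-GFP and at 706, 726 and 732 TPM in A549-TIPARP. HSPA5 (BiP), the HSP70 of the ER and regulator of the unfolded protein response, was at 309, 391 and 243 TPM in A549-GFP and at 296, 287 and 318 TPM in A549-TIPARP. The log2 differences were 0.07 ± 0.14 and -0.04 ± 0.195 (SE), and the sign of HSPA5 turned positive (0.025 under rescaling, 0.052 under the GC correction and 0.13 without A549-GFP replicate 2), while its difference was -0.21 without A549-GFP replicate 3. The HSP90B1 difference was 0.0058 without A549-GFP replicate 3, 0.13 without A549-GFP replicate 1, 0.14 under rescaling and 0.19 under the GC correction. The sum over the 18 ER members was 1942 to 2414 TPM in A549-GFP and 2237 to 2327 TPM in A549-TIPARP, which lay inside the first range.

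The 4 PDIA genes, which form and reshuffle disulphide bonds, all had a higher mean in A549-TIPARP, also under rescaling and the GC correction, but the difference of PDIA6 turned to -0.031 without A549-GFP replicate 2. PDIA3 was at 280, 267 and 219 TPM in A549-GFP and at 289, 257 and 298 TPM in A549-TIPARP. PDIA4 was at 292, 246 and 237 TPM in A549-GFP and at 298, 258 and 280.1 TPM in A549-TIPARP. PDIA6 was at 394, 274 and 322 TPM in A549-GFP and at 346, 369 and 330.4 TPM in A549-TIPARP. These 3 overlapped between the lines. PDIA5 (chr3:123067025-123225227, 17 exons) did not, with 36.2, 34.0 and 32.5 TPM in A549-GFP and 40.1, 38.3 and 51.0 TPM in A549-TIPARP and a log2 difference of 0.32 ± 0.19 (SE, limma, adjusted p = 0.994) that was 0.19 without A549-TIPARP replicate 3. The disulphide isomerase P4HB, outside the set, was picked after its values were seen. It was at 732, 941 and 691 TPM in A549-GFP and at 766, 673 and 837 TPM in A549-TIPARP, which overlapped (log2 difference -0.046 ± 0.17 SE).

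The widest spread within A549-GFP among the ER members was that of DNAJB9, DNAJC16 and HSPA13, with SDs of log2(TPM + 1) of 1.34, 0.81 and 0.79 (n = 3). DNAJB9 (ERdj4), a target of the unfolded protein response, was at 18.9, 85.3 and 14.4 TPM in A549-GFP and at 18.3, 16.6 and 32.3 TPM in A549-TIPARP. A549-GFP replicate 2 stood far above the rest, and the log2 difference of -0.41 ± 0.59 (SE), or -0.27 under the GC correction, turned to 0.36 without it. DNAJC3 (P58IPK) was at 18.3, 30.3 and 14.7 TPM in A549-GFP and at 17.9, 15.2 and 20.7 TPM in A549-TIPARP, and HSPA13 at 16.8, 34.8 and 11.3 TPM and at 12.5, 17.01 and 13.6 TPM. DNAJC16 was at 7.09, 16.7 and 4.94 TPM in A549-GFP and at 5.65, 5.65 and 7.17 TPM in A549-TIPARP. Each was highest in A549-GFP replicate 2, and each difference changed sign without that library. DNAJB11 (ERdj3) and DNAJC10 (ERdj5), a disulphide reductase, were at 94.3 to 121 TPM and 31.9 to 68.0 TPM over the 6 libraries. DNAJC18, singled out as separated, was at 1.47, 1.45 and 1.58 TPM in A549-GFP and at 1.83, 1.74 and 2.20 TPM in A549-TIPARP, close to the floor. Under median-ratio rescaling its libraries overlapped.

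**Figure D4:**
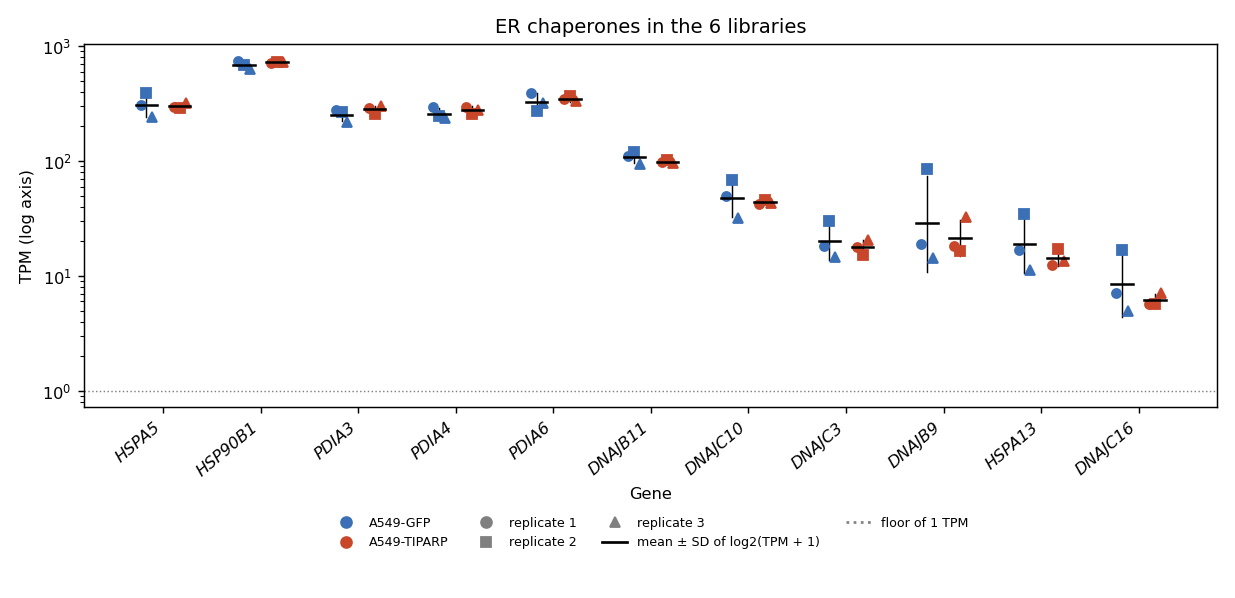
TPM on a log axis in each of the 6 libraries for 11 ER chaperones, with points for libraries, black bars for the mean ± SD of log2(TPM + 1) over 3 libraries turned back to TPM, and a dotted line at the floor of 1 TPM. The abundant chaperones on the left lie close together in both lines, and DNAJB9, HSPA13 and DNAJC16 on the right are highest in A549-GFP replicate 2 (squares).

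The libraries of A549-GFP framed those of A549-TIPARP in the ER. Of the 18 ER members, 11 were highest in A549-GFP replicate 2 and 14 were lowest in A549-GFP replicate 3, against 52.0% and 34.6% of all analysed genes. The other genes of the ER stress response and of ER folding were looked at as a list of 22, of which 21 were analysed. None of the 21 passed the adjusted threshold, 0 had an unadjusted limma p under 0.05, and the median log2 difference was -0.10. Above every A549-GFP library lay 1 of the 21, against 5.36% of all genes. This was CALR (calreticulin), a lectin chaperone, with 648, 456 and 562 TPM in A549-GFP and 736, 666 and 728 TPM in A549-TIPARP. The CALR difference of 0.37 on the log2 scale was 0.23 without A549-GFP replicate 2. Below every A549-GFP library lay 2 of the 21, against 3.54% of all genes. DERL1, a channel component of ER-associated degradation, was at 63.8, 97.8 and 51.9 TPM in A549-GFP and at 49.7, 46.7 and 50.3 TPM in A549-TIPARP, a log2 difference of -0.48 that was -0.23 without A549-GFP replicate 2. ERO1A, an oxidase that recharges the PDI proteins, was picked after its values were seen, with 66.3, 58.4 and 57.4 TPM in A549-GFP and 51.3, 56.3 and 46.5 TPM in A549-TIPARP. The ERO1A difference of -0.24 was -0.10 under the GC correction, and its libraries overlapped under median-ratio rescaling. ERN1 (IRE1), a sensor of the unfolded protein response, overlapped between the lines, with 2.00, 6.11 and 1 TPM (the floor) in A549-GFP and 1.5, 1.04 and 1.05 TPM in A549-TIPARP. It had the most negative log2 difference of the 21, -0.67 ± 0.42 (SE), which was -0.16 without A549-GFP replicate 2. CRELD2, an ER protein with disulphide isomerase activity that ER stress induces, also overlapped, with 55.7, 41.9 and 50.7 TPM in A549-GFP and 68.4, 52.3 and 71.2 TPM in A549-TIPARP, a log2 difference of 0.36 ± 0.20 (SE).

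Both heat shock factors overlapped between the lines. HSF1, the main switch of the heat shock response, was at 99.0, 151 and 103 TPM in A549-GFP and at 104, 94.8 and 108 TPM in A549-TIPARP. HSF2 was at 9.46, 7.96 and 7.01 TPM in A549-GFP and at 7.43, 8.60 and 6.35 TPM in A549-TIPARP. The 18 analysed members with a heat shock element of 2 units in the 250 bases before the start comprised HSPB1 and HSPB8. Of the 18, 13 (72.2%) had a lower mean in A549-TIPARP, against 72.2% of all 79 analysed members and 60.4% of all genes, and the median of the 18 was -0.10. The 5 members with the form of 3 units all had a lower mean, but only HSPA8 kept its sign in all 15 alternatives. HSP90AB1 turned to 0.058 under rescaling and under the GC correction, and with 1 library left out the difference reached 0.17 for HSP90AB1, 0.046 for HSP90AA1, 0.033 for HSPD1 and 0.032 for DNAJB6. Among the 13 genes outside the set listed as cochaperones of HSP70 and HSP90, which include the small heat shock protein CRYAB, 0 passed the adjusted threshold. Of the 13, 3 had a higher mean, and the median was -0.13. Of the 6 prefoldin genes, which hand clients to TRiC, 0 passed and 3 had a higher mean.

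**Figure D5:**
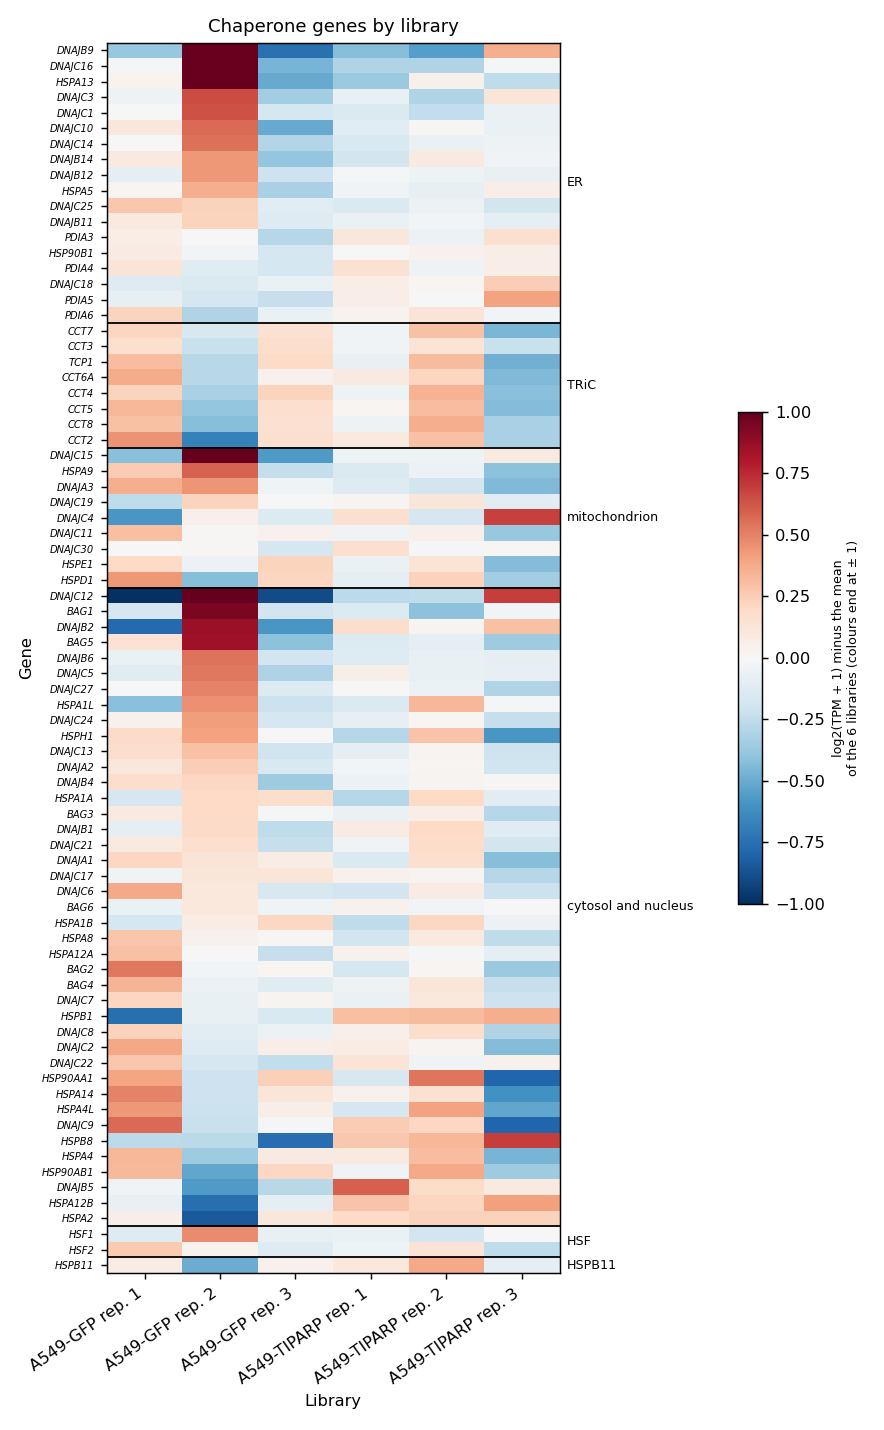
Each row is 1 of the 79 analysed members and each column 1 library, and colour gives log2(TPM + 1) minus the mean of the 6 libraries, with the colours ending at ± 1. Rows are grouped by class and ordered by the value in A549-GFP replicate 2, where 11 of the 18 ER members were highest and 0 of the 8 TRiC genes were.

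The map of the members by library shows these orders side by side. A549-GFP replicate 2 was the highest library for 33 of the 79 members (41.8%, against 52.0% of all genes), and A549-TIPARP replicate 3 was the lowest for 32 (40.5%, against 23.4%). Most of the latter were cytosolic, with 20 of 41, or TRiC genes, with 6 of 8, and of the 18 ER members 1 was lowest there. Summed over the set, the chaperones took 1.20% to 1.43% of the TPM in A549-GFP and 1.08% to 1.43% in A549-TIPARP. With fewer libraries a separation is more easily reached, so the counts without 1 library are given beside the same shares of all genes. Leaving out A549-GFP replicate 2 gave 14 members above (17.7%, against 21.2% of all genes) and 4 below (5.06%, against 6.42%) every remaining A549-GFP library. Without A549-GFP replicate 1 there were 11 above (13.9%, against 8.12%) and 2 below (2.53%, against 5.77%), and without A549-GFP replicate 3 there were 7 above (8.86%, against 7.21%) and 15 below (19.0%, against 23.5%). Without A549-TIPARP replicate 2 there were 10 above (12.7%, against 8.13%) and 10 below (12.7%, against 7.97%). Without A549-TIPARP replicate 1 there were 7 above (8.86%, against 6.53%) and 1 below (1.27%, against 5.21%), and without A549-TIPARP replicate 3 there were 8 above (10.1%, against 8.07%) and 1 below (1.27%, against 5.48%). HSPB8, HSPB1 and DNAJA3 kept their sign in all 15 alternatives, and 39 of the 79 members did so in every alternative that gave them a value. The other filters, the fit without a variance trend and the block leave a difference as it is, so they could not change a sign. Leaving out 1 library cannot change it either where the libraries of the lines do not overlap, as in HSPB8, HSPB1 and DNAJA3.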

How the data were processed

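RNA-seq covered 3 libraries each of A549-GFP and A549-TIPARP cells. Per library, the authors deposited log2 TPM (reads scaled by transcript length and library total) for 53826 entries, made with Strand NGS from paired-end reads aligned to the hg38 transcriptome. The software version, the gene annotation and how multi-mapping reads were counted are not given in the sources used here. TPM keeps no counts, so the depth is unknown. TPM below 1 had been set to 1, here called the floor.

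Values were turned back to TPM and the study's filter of more than 2 TPM in 1 or more of 6 libraries was kept. A count test had been planned in case counts were given. Instead, log2(TPM + 1) of all 13181 genes was fitted with limma (3.58.1, R 4.3.3) using a variance trend, Benjamini-Hochberg adjustment and a threshold of 0.05. The script was tested on simulated data. The members, classes and lists were chosen with earlier results of these data known. Genes named by rule were 28 members set by symbol, the 5 largest differences in each direction and the 5 smallest limma p-values in each direction, and from other lists up to 2 per direction. The other members named were picked after their values were seen. Alternatives were other pseudocounts, filters and fold thresholds, median-ratio rescaling, no variance trend, the replicate number as a block and each library left out. Correction for transcript GC content, alone and with the block, was added after the data were seen. Coordinates came from GENCODE 44 on hg38.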

Additional observations from a re-analysis of the deposited data

How the results depend on the processing

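No member had an adjusted p under 0.05 in any of the 15 alternatives, and among the genes named by rule the smallest was 0.271. Over all genes the number at that threshold was 2, and it was 1 with no filter on low values (14618 entries), with the replicate block and with GC correction with the block, and 1 to 3 when 1 library was left out (1 without A549-GFP replicate 3, A549-TIPARP replicate 1 or A549-TIPARP replicate 2). Members at an unadjusted limma p under 0.05 numbered 5 (5 with the replicate block, 3 with the GC correction, 2 to 6 without 1 library, with 2 lacking A549-TIPARP replicate 1 and 3 lacking replicate 2 or 3 of that line). The 4 members past 1.5-fold higher became 0 at 2-fold. Those past 1.5-fold lower numbered 0 to 6 without 1 library, with 6 lacking A549-GFP replicate 3, 2 lacking A549-TIPARP replicate 2 and 1 lacking A549-GFP replicate 1 or A549-TIPARP replicate 3. Members higher in every A549-TIPARP library numbered 7 to 14, and lower ones 1 to 15, without 1 library, the 14 without A549-GFP replicate 2 and the 15 without A549-GFP replicate 3, and lower ones 3 after median-ratio rescaling. Of 37 genes named by rule, 21 kept their sign in all alternatives, although the other filters, the missing variance trend and the block cannot change a sign. Median-ratio rescaling turned HSP90AB1 to 0.058, HSPA4 to 0.021 and HSPA5 to 0.025. GC correction, chosen after seeing the data, with or without the replicate block, turned CCT5 to 0.015, DNAJC10 to 0.022, HSF2 to 0.0048, HSP90AB1 to 0.058, HSPA4 to 0.063 and HSPA5 to 0.052. Leaving out 1 library gave log2 differences of -0.28 to 0.13 for CCT5, -0.88 to 0.36 for DNAJB9, -0.40 to 0.14 for DNAJC10, -0.75 to 0.0396 for DNAJC16, -0.39 to 0.11 for DNAJC3, -0.29 to 0.016 for HSF1, -0.62 to 0.046 for HSP90AA1, -0.27 to 0.17 for HSP90AB1, -0.73 to 0.044 for HSPA13, -0.19 to 0.036 for HSPA1B, -0.23 to 0.18 for HSPA4, -0.21 to 0.13 for HSPA5, -0.40 to 0.033 for HSPD1, -0.031 to 0.23 for PDIA6, -0.36 to 0.044 for TCP1. The causes were not tested. The block changed no other call. Its numbers, like every replicate number given here, are the experiment numbers of the titles, from which the numbers in the names of the deposited tables differ. The correlation of deviations from the mean of the line was -0.52 to 0.45 for same-numbered libraries and -0.65 to 0.62 for the others. Deviations within a line of 3 libraries depend on each other, so these values cannot decide whether libraries were paired. No other pairing was used as a block. TPM carries no depth, so no counting error is given.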
